A study of Mus musculus with 3 samples.

Results

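The immunoproteasome and MHC class I loading genes were represented by 10 genes among the 17742 that the arrays named: Psmb8, Psmb9, Psmb10, Psme1, Psme2, Tap1, Tap2, Tapbp, Nlrc5 and B2m. They were chosen by gene symbol, and a gene with several probes was read on the probe whose average over the 3 arrays was highest. All 10 had a probe. The RNA came from mouse BXH-2 myeloid leukaemia cells of bone marrow origin, grown in culture. B117P, the parental line, is sensitive to cytarabine (Ara-C), a deoxycytidine analogue that blocks DNA synthesis after the cell phosphorylates it, and it was measured on 2 arrays. B117HS, the resistant line, was selected from B117P with stepwise higher Ara-C over about 10 weeks, reached an IC50 about 10 times that of its parent, and was measured on 1 array. The BXH-2 strain, shared by all arrays, carries a missense mutation of Irf8, a transcription factor of monocytes and an activator of many interferon-inducible genes. B117P and B117HS are a single parent and a single derived line, and no drug-free passage of the parent over the same weeks was analysed here. Whether the sensitive arrays stand for separate cultures is not labelled, so a p-value here reflects the scatter between these arrays alone, which may be technical.

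Cells show fragments of their own proteins on MHC class I molecules. The proteasome cuts proteins into peptides, and interferon-gamma makes cells exchange its 3 catalytic subunits (encoded by Psmb5, Psmb6 and Psmb7) for immunosubunits (encoded by Psmb8, Psmb9 and Psmb10), which favours peptides that class I can bind. The PA28 cap, built from the products of Psme1 and Psme2, opens the proteasome core. The TAP transporter, a pair of the Tap1 and Tap2 proteins, carries peptides into the endoplasmic reticulum, where tapasin (Tapbp) holds it beside class I molecules awaiting peptide. Every class I heavy chain pairs with beta-2 microglobulin (B2m), and NLRC5 is the transactivator that switches on many genes of the pathway. Myeloid cells commonly carry immunoproteasomes even without infection.

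The immunosubunit genes Psmb8 and Psmb9, the transactivator gene Nlrc5, the transporter gene Tap1 and the PA28 gene Psme1 fell in the resistant cells. Psmb9 and Psmb8 were 59.8 and 31.3 times brighter in the sensitive cells than in the resistant cells, and Nlrc5 was 35.5 times brighter. After the arrays were scaled to equal brightness those ratios were 35.1, 18.3 and 20.8. The ratios of Psmb9 and Nlrc5 rest on resistant readings of 84.0 and 96.4 units, for which it is not settled how much is background. Psmb10 and Tapbp were lower by a smaller amount that depended on how the arrays were scaled. B2m and Tap2 were not called as deposited, and Tap2, the partner of Tap1, was the only member called higher on either scale. Psme2 read below 50 units on every array, so its probe gave no level that could be compared.

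The resistant array was dimmer as a whole, so each difference is given on 2 scales. Over 6167 probes with a mean of at least 500 units, its median log2 ratio to the sensitive mean was -0.77, against -0.04 and 0.04 for sensitive replicates 1 and 2. For the second scale every array was multiplied by 1 factor that sets this ratio to 0, and a gene is said to have risen or fallen only where it was called as deposited and after scaling. The scaling moved the median log2 difference of all genes from -0.33 to -0.06. Values are log2(intensity + 50), which understates the change of dim genes. A call required a Benjamini-Hochberg adjusted p under 0.05 in limma, and the resistant array had to lie at least 1 log2 unit above both sensitive arrays or at least 1 below both. As deposited, 18.5% of all genes were called lower and 5.23% higher. On both scales 8.35% were called lower and 5.21% higher. Higher genes made up 22.03% of the called genes as deposited and 53.8% after scaling. Among 5318 genes with a mean of at least 500 units, as 9 members had, 35.2% were called lower as deposited and 13.5% on both scales, and 8.86% and 8.82% higher.

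Of the 10 members, 7 were called lower as deposited and 5 on both scales, against the 18.5% and 8.35% of all genes given above. After scaling, 5 members were called lower and 1 higher, where 8.45% of all genes were lower and 9.86% higher. The members' median log2 difference was -2.05 as deposited and -1.31 after scaling. The same medians over genes with a mean of at least 500 units were -0.74 and -0.003. The sensitive arrays differed from each other by log2 values of -0.30 (Tap1) to 0.16 (Psmb10) over the members, and 0.857% of all genes differed by at least 1 between them. The members were chosen with earlier results of these arrays known, so these counts are a description of the pathway.

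**Figure D1:**
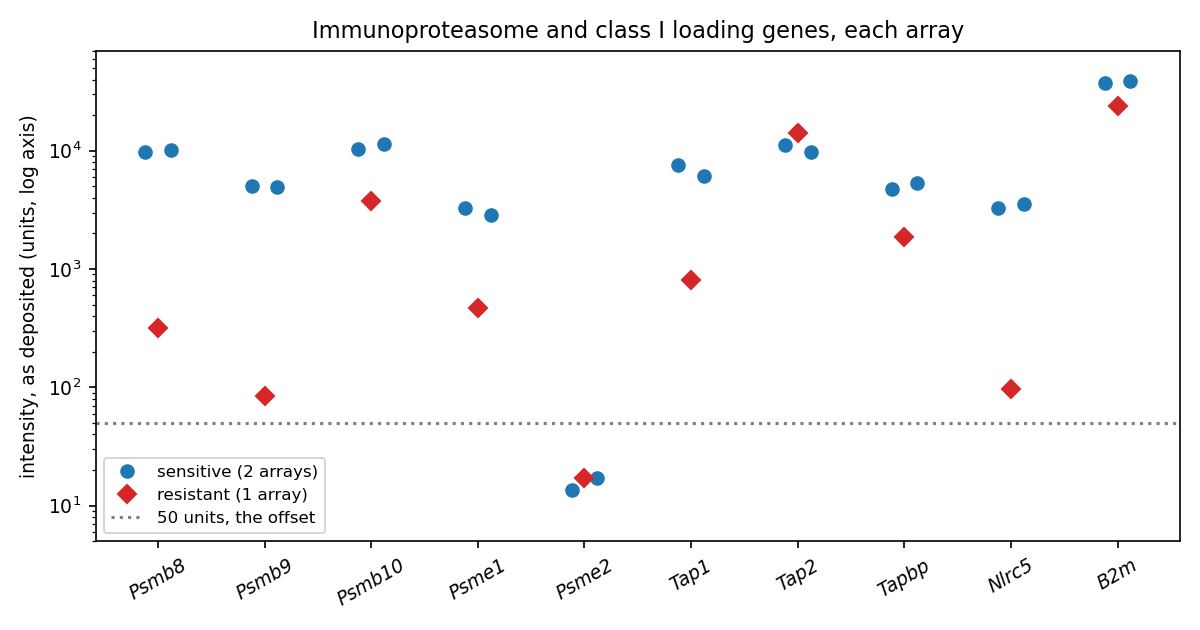
Intensity of each member on the 2 sensitive arrays (circles) and the resistant array (diamonds), as deposited, on a log axis; the dotted line marks 50 units, the offset added before log2. The resistant array lies far below both sensitive arrays for Psmb8, Psmb9 and Nlrc5, lies above them for Tap2, and all 3 arrays lie below the line for Psme2.

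The start regions of 4 members are shown. Psmb9 and Tap1, which fell together, are divergent neighbours that share 1 stretch between their starts. Psmb8, which fell, and B2m, which was not called, hold different interferon motifs in their start regions, and only B2m of this pair holds an NF-kB match. Whether the motifs go with the differences was not tested. Sequences are RefSeq's for GRCm38.p6, and 8 of the 10 members had an entry; Tap2 and Nlrc5 were not among them. Capitals mark matches to 4 motifs searched on both strands: the interferon-stimulated response element (ISRE, GAAANNGAAA), the gamma-activated sequence of interferon-gamma responses (GAS, TTCNNNGAA), the NF-kB consensus, and the CCAAT box that NF-Y binds (CCAAT). The stretch between Psmb9 and Tap1 is 225 bases long, at chr17:34187331-34187555, and is printed on the plus strand, with the Psmb9 start at its left end and the Tap1 start at its right end. The Psmb8 region is chr17:34197945-34198194 on the plus strand and the B2m region is chr2:122147437-122147686 on the plus strand, each the 250 bases before the gene's start.
Psmb9-Tap1: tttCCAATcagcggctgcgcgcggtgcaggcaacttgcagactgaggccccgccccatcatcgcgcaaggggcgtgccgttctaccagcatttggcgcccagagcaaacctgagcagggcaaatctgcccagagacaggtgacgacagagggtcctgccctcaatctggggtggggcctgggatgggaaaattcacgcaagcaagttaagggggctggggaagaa
Psmb8: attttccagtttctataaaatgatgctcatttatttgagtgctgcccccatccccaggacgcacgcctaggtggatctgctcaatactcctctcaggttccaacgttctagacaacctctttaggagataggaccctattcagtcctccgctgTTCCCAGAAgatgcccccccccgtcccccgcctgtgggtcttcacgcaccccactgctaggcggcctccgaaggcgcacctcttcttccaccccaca
B2m: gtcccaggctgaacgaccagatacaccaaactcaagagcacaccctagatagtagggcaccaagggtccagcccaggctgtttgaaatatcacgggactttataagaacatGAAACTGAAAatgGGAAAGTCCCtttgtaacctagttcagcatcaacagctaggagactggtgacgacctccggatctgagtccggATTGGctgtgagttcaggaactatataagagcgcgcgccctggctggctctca

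Between Psmb9 and Tap1 the capitals are a single CCAAT box next to the Psmb9 start, and no ISRE, GAS or NF-kB match was found in this window. The Psmb8 region held 1 GAS match. The B2m region held 1 match to the ISRE and, on the other strand, 1 each to the NF-kB consensus and the CCAAT box. The ISRE and NF-kB matches lay beside each other and did not overlap. Over 32817 promoter entries cut to the same 250 bases, 2.97% held an ISRE match, 7.01% a GAS match, 7.25% an NF-kB match and 33.8% a CCAAT box. The regions of Psmb10, Psme1 and Psme2 held no match to any of the 4 motifs, and that of Tapbp held 2 CCAAT boxes. A match is a match of letters, and no binding was measured.

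The immunosubunit genes did not move by a common amount. Psmb8, whose product LMP7 replaces the Psmb5 subunit, read 9665 and 10199 on sensitive replicates 1 and 2 and 317 on the resistant array. The groups did not overlap, and the resistant value lay far below both. The mean was 9932 ± 378 (SD, n = 2), and the log2 difference was -4.76 (SE 0.20, limma adjusted p = 1.25e-08), or -4.08 after scaling (adjusted p = 0.00776).

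Psmb9, whose product LMP2 replaces the Psmb6 subunit, read 5074 and 4978 for B117P and 84.0 for B117HS. It had the largest difference of the members, -5.24 (SE 0.21, limma adjusted p = 9.39e-09), and -4.71 after scaling. Only 0.096% of all genes had a lower difference as deposited, against 0.22% for Psmb8 and 0.293% for Nlrc5. The resistant reading of Psmb9 stood above 61.0% of the probes on its array, and without background flags it is not settled whether 84.0 units is a remaining level or background.

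Psmb10, whose product MECL-1 replaces the Psmb7 subunit, kept a bright signal in the resistant cells. It read 10273 and 11501 in the parental cells and 3783 in the resistant cells. The log2 difference was -1.51 (SE 0.20, limma adjusted p = 7.49e-05), and after scaling it was -0.75, short of the size asked. Of the 2 scales, the call of Psmb10 therefore held on the deposited one only. It also held after quantile normalization (-1.22).

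The genes of the standard subunits were not called on either scale. Psmb5 read 7349 and 8178 on the parental arrays against 4617 (log2 difference -0.74, and 0.023 after scaling). Psmb6 read 16664 and 23034 against 9343 (-1.06, and -0.30 after scaling), and Psmb7 read 1860 and 2753 against 1024 (-1.11, and -0.36 after scaling). Psmb6 and Psmb7 differed by at least 1 from sensitive replicate 2 (-1.30 and -1.38) and by -0.83 each from replicate 1, so they missed the size rule.

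**Figure D2:**
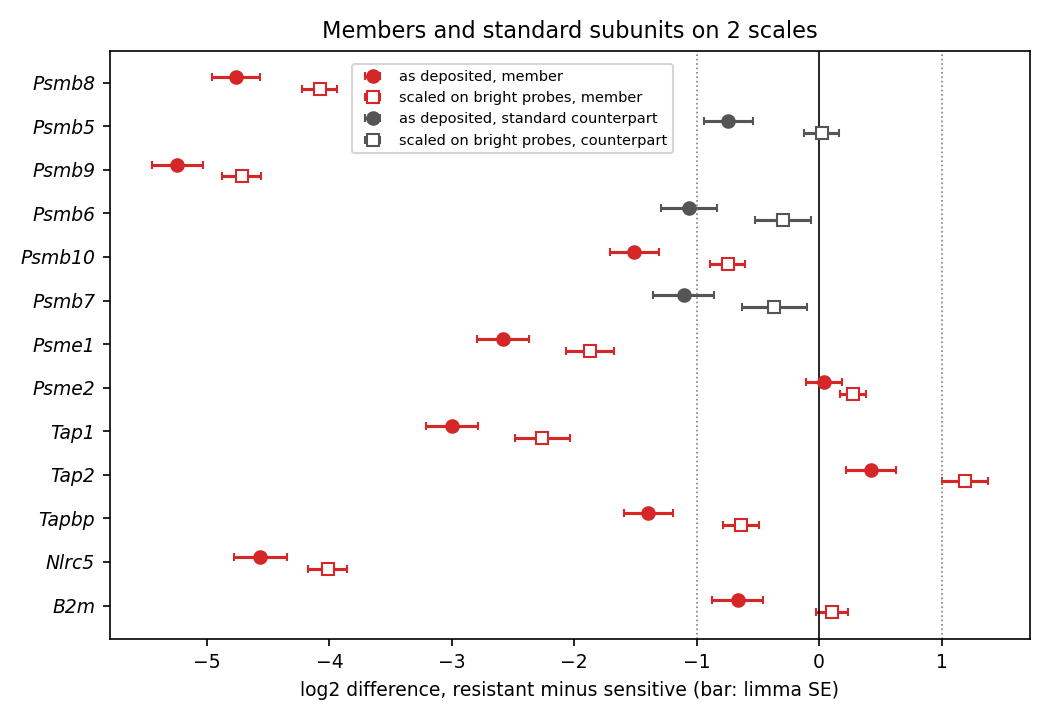
Log2 difference, resistant minus sensitive, with limma's SE as bars, for the 10 members (red) and the 3 standard catalytic subunit genes (grey), as deposited (filled circles) and scaled on bright probes (open squares); dotted lines mark a difference of 1 in size. Psmb8 (-4.76 and -4.08) and Psmb9 (-5.24 and -4.71) stand far from Psmb5 (-0.74 and 0.023) and Psmb6 (-1.06 and -0.30), while Psmb10 and Psmb7 lie close together.

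Within an array a brightness factor nearly cancels from the ratio of an immunosubunit gene to its standard counterpart, so each pair was also read as a ratio. The log2 ratio of Psmb8 to Psmb5 was 0.39 and 0.32 for B117P and -3.67 for B117HS, a change of -4.02. That of Psmb9 to Psmb6 was -1.71 and -2.20 against -6.13, a change of -4.18. Both changes were many times the spread between the sensitive arrays (SD 0.05 and 0.35, n = 2). The ratio of Psmb10 to Psmb7 was 2.43 and 2.04 against 1.84, a change of -0.40 beside an SD of 0.28. The Psmb10 change was thus close to the spread between the sensitive arrays. These ratios compare changes and not levels between probes, and the changes in ratio were not tested.

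No gene of the remaining proteasome core was called on both scales. Of 9 measured genes of other 20S core subunits, Psma4 (-1.23) and Psmb2 (-1.37) were called lower as deposited and neither after scaling, with a list median of -0.85, and -0.23 after scaling. Psma2 (-0.85), Psma7 (-0.99) and Psmb4 (-0.33) were not called. Of 8 genes of proteasome assembly and other regulators, Psmg3 (-1.06) and Psme3 (-1.31), which encodes the nuclear relative of PA28, were called lower as deposited only. Psme4, the gene of the PA200 cap, differed by 0.44 and was called higher after scaling (1.20). Pomp, the maturation factor that brings immunosubunits into new proteasomes, read 2768 and 2626 against 1828 (-0.55, and 0.21 after scaling) and was not called, nor were the assembly chaperone genes Psmg1 (-0.19) and Psmg4 (-0.94).

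Psme1, the PA28 alpha gene, fell. It read 3289 and 2853 in the parental cells and 470 in the resistant cells. The log2 difference was -2.58 (SE 0.21, limma adjusted p = 1.80e-06), and -1.87 after scaling (adjusted p = 0.0146). With a floor of 50 units in place of the offset, the difference was -2.70 but the adjusted p was 0.0675, which ended the call.

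Psme2, the PA28 beta gene, read 13.7 and 17.1 for B117P and 17.1 for B117HS. These values were below those of most probes on each array, and the single probe therefore says nothing about the partner of Psme1. Its log2 difference of 0.04 was not called.

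The peptide transporter genes did not move together. Tap1 read 7597 and 6161 in the parental cells and 814 in the resistant cells. The log2 difference was -2.997 (SE 0.21, limma adjusted p = 5.41e-07), and -2.26 after scaling (adjusted p = 0.0132). The floor of 50 units ended this call as well (-3.07, adjusted p = 0.0733).

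Tap2 read 11243 and 9686 for B117P and 13989 for B117HS, above both. The log2 difference of 0.42 (SE 0.20, limma adjusted p = 0.107) was not called as deposited. After scaling it was 1.19 with an adjusted p of 0.0270, and Tap2 was called higher. It was not called after quantile normalization (0.47) or centring on array medians (0.99). In 10.3% of all genes the difference as deposited was higher than that of Tap2. The log2 ratio of Tap1 to Tap2, a pair chosen after the values were seen, was -0.56 and -0.65 in the parental cells and -4.02 in the resistant cells, a change of -3.42. Each gene had 1 probe, and the probe sequences were not used here, so no other probe speaks to the level of Tap2.

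Psmb9 and Tap1, whose starts lie 225 bases apart on the printed stretch, fell together but by unequal amounts. The log2 ratio of Psmb9 to Tap1 changed by -2.25 between the groups (SD 0.19 over the sensitive arrays). This pair was also chosen after the values were seen.

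Tapbp, the tapasin gene, read 4776 and 5288 for B117P and 1879 for B117HS. The log2 difference was -1.40 (SE 0.20, limma adjusted p = 0.000141), and -0.64 after scaling (adjusted p = 0.0511). Like Psmb10, Tapbp was therefore called on the deposited scale alone.

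Nlrc5 fell on the probe that stood for it. That probe read 3287 and 3551 in the parental cells and 96.4 in the resistant cells. The log2 difference was -4.57 (SE 0.22, limma adjusted p = 2.55e-08), and -4.01 after scaling (adjusted p = 0.00776). The other Nlrc5 probe was dim throughout, with 46.0 and 93.7 against 24.9 units, and differed by -0.65 in the same direction.

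B2m read 37123 and 38956 units for sensitive replicates 1 and 2 and 23973 for the resistant cells. The resistant value lay below both. The log2 difference was -0.66 (SE 0.21, limma adjusted p = 0.0195), short of the size asked. After scaling it was 0.10 (adjusted p = 0.58), so the direction of B2m depends on the scale. The log2 ratio of Psmb9 to B2m, chosen after the values were seen, changed by -4.58 (SD 0.07 over the sensitive arrays).

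**Figure D3:**
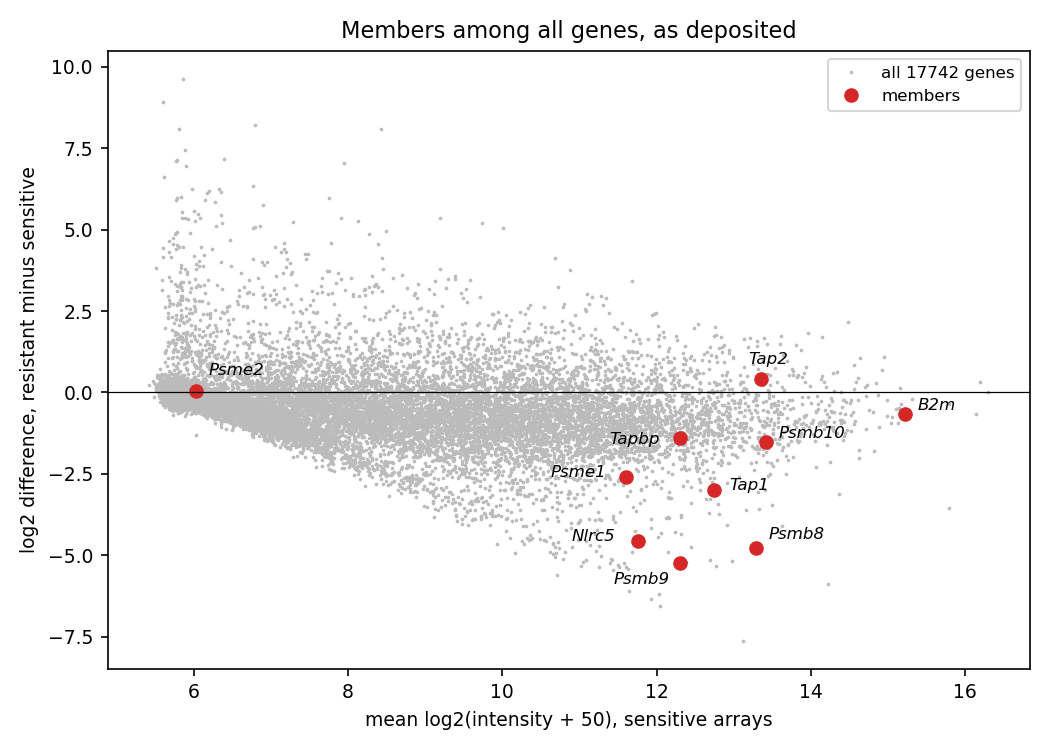
Each grey point is 1 of 17742 genes, with the mean log2(intensity + 50) of the sensitive arrays on the x axis and the log2 difference, resistant minus sensitive, on the y axis; members are red. Psmb9 (-5.24), Psmb8 (-4.76) and Nlrc5 (-4.57) lie near the lower edge of the cloud, Tap2 (0.42) lies above 0, and B2m (-0.66) lies between.

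Psmb9, Tap1, Psmb8 and Tap2 follow each other in this order in the class II region of the mouse MHC, with no other measured gene between them. Of the 10 measured genes on each side, 5 of 20 were called lower as deposited and 3 on both scales, against 18.5% and 8.35% of all genes. The 3 that fell were H2-Aa (-2.52), which encodes a class II alpha chain, Col11a2 (-2.38), a cartilage collagen gene, and Rgl2 (-2.49), a Ral exchange factor gene. Wdr46 (-1.68) and Ring1 (-1.34) were called lower as deposited only, and B3galt4 was called higher after scaling (0.89, and 1.61 after scaling). The nearest measured neighbour on the Psmb9 side, the chromatin reader gene Brd2, differed by -0.69 and was not called. The fall was therefore not shared by all genes of the stretch, and Tap2 inside it was not called lower on either scale.

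**Figure D4:**
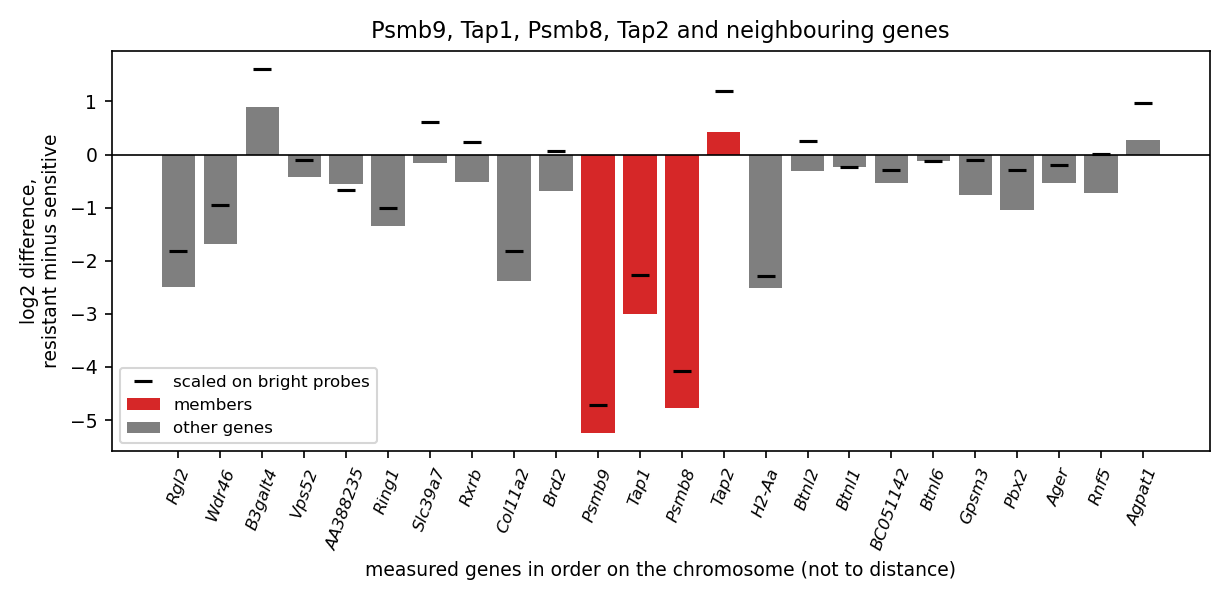
Log2 difference, resistant minus sensitive, for 24 measured genes in chromosome order around Psmb9, Tap1, Psmb8 and Tap2, as deposited (bars; members red) and scaled on bright probes (dashes). The bars of Psmb9 (-5.24), Tap1 (-2.997) and Psmb8 (-4.76) are deeper than those of the neighbours, the deepest of which is H2-Aa at -2.52. After scaling, Tap1 (-2.26) is no deeper than H2-Aa (-2.29), while Psmb9 (-4.71) and Psmb8 (-4.08) still are.

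Class I heavy chain genes were not analysed here. Of 12 measured genes of peptide trimming and loading, 2 fell and 1 rose. Over all genes 8.35% fell and 5.21% rose, and among genes with a mean of at least 500 units 13.5% and 8.82% did. Not every gene of this list was that bright. The cytosolic peptidase gene Tpp2 read 4683 and 4247 against 1131 (-1.93, and -1.19 after scaling), and the puromycin-sensitive aminopeptidase gene Npepps read 1916 and 1735 against 411 (-2.02, and -1.32 after scaling). Tapbpl, which encodes TAPBPR, a tapasin-related peptide editor, moved the other way from Tapbp, with 327 and 452 against 1327 (1.66, and 2.41 after scaling). The chaperone genes Calr (-0.23), Canx (-0.11) and Hspa5 (-0.59) were not called. Erap1 and Lnpep, 2 aminopeptidase genes, and Pdia3, the gene of a loading complex oxidoreductase, read below 50 units on every array. Thop1, another cytosolic peptidase gene, was called lower on the deposited scale alone (-1.33). Lap3, also of this list, was called higher after scaling alone (0.69, and 1.44 after scaling). The list median was -0.17 as deposited and 0.44 after scaling.

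Other proteins that pair with beta-2 microglobulin are made from Cd1d1, Mr1, Hfe and Fcgrt among the genes measured. Mr1, which presents vitamin metabolites, rose from 19.9 and 23.7 units, near background, to 334 (2.42, and 3.11 after scaling). Hfe, a regulator of iron uptake, differed by 0.83 and was called higher after scaling (1.59). Cd1d1 (-0.16) and Fcgrt (0.49) were not called.

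More class II presentation genes fell than rose, as was so over all genes (8.35% and 5.21%). Of 6 measured, 3 fell and 1 rose, and the list median was -1.93 (-1.63 after scaling). The lysosomal protease genes Lgmn (10474 and 15214 against 688, a difference of -4.10) and Ctss (1100 and 1228 against 32.7, -3.87) fell with H2-Aa (370 and 285 against 15.6). Cd74, the invariant chain gene, met the call as deposited (-1.34) but not after scaling (-0.96). Ifi30, the gene of the interferon-inducible lysosomal thiol reductase GILT, rose from 425 and 542 to 4709 (3.17, and 3.93 after scaling). Ciita, the class II transactivator and a relative of Nlrc5, read below 50 units on every array.

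Of 13 measured genes of interferon signalling, which induces the members, 5 were called lower and 1 higher as deposited, and 2 fell and 1 rose on both scales. Over all genes, 18.5% were called lower and 5.23% higher as deposited, and 8.35% and 5.21% on both scales. Among genes with a mean of at least 500 units these shares were 35.2% and 8.86%, and 13.5% and 8.82%. Not every gene of this list was that bright, so neither background matches it fully. Irf8 read 3115 and 2302 for B117P and 29.6 for B117HS (log2 difference -5.10, and -4.76 after scaling), a size close to that of Psmb9. Irf9, part of the ISRE-binding complex ISGF3, fell from 639 and 1014 to 143 (-2.15, and -1.54 after scaling), and its partner Stat2 was called lower as deposited only (-1.86, adjusted p = 0.107 after scaling). Ifngr1, the ligand-binding chain of the interferon-gamma receptor, rose from 1024 and 1415 to 6568 (2.40, and 3.17 after scaling), while the other chain, Ifngr2, was called lower as deposited only (-1.51). Irf1, a direct activator of Psmb9 and Tap1 transcription, was not called (-0.70, and 0.03 once scaled), nor were Socs3 (-1.41, with 217 and 1043 against 154 units) and Jak2 (0.19).

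Of 10 measured genes of factors known to act at class I promoters, 2 fell. Over all genes 8.35% fell, and 13.5% of those with a mean of at least 500 units, which not all 10 had. The 2 that fell encode non-canonical NF-kB proteins. Relb read 1102 and 888 against 80.9 (-2.99, and -2.47 after scaling), and Nfkb2 read 1215 and 1438 against 294 (-1.996, and -1.31 after scaling). Rela (-1.52), Nfkb1 (-1.08) and Atf1 (-1.22) were called lower as deposited only. Rfx5 (-0.76) and Rfxank (-0.65), genes of the RFX complex with which NLRC5 works, were not called.

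**Figure D5:**
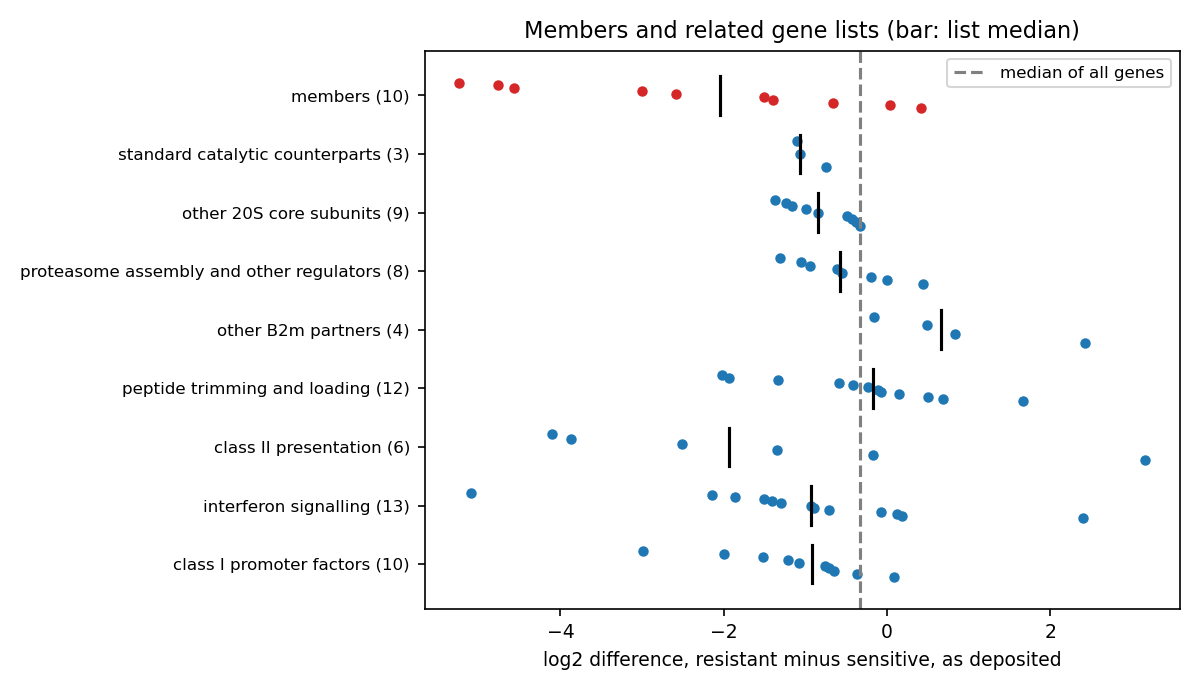
Log2 difference as deposited for each measured gene of the members (red) and related lists (blue), with the number measured in brackets, a bar at each list's median and a dashed line at the median of all genes (-0.33). The members reach from -5.24 to 0.42 and have a lower median (-2.05) than the standard catalytic counterparts (-1.06) or the other 20S core subunits (-0.85). The class II presentation list has a median close to theirs (-1.93). After scaling, which is not drawn, its median (-1.63) is below that of the members (-1.31).

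Markers of the cell identity were read beside these results. Of 9 measured myeloid markers, 2 fell and 2 rose, where 8.35% and 5.21% of all genes did. Ptprc (8096 and 8219 against 6725 units) and Mpo (76710 and 84138 against 80905) were bright on every array and not called on either scale. Csf1r (-5.14) and Spi1 (-2.06) fell, and Fcgr3 (5.97) and Ctsg (1.14) rose. Itgam (-1.89) was called lower as deposited only. Cebpa (0.98, and 1.72 after scaling) was called higher after scaling only, and Cd33 (-0.45) was not called. Of 8 measured markers of dendritic cells, a cell type rich in immunoproteasome, 3 fell, where 8.35% of all genes did. They were Itgax (2033 and 2387 against 38.9 units), Zbtb46 (226 and 220 against 17.1) and Siglech (72.1 and 58.0 against -4.67). Flt3 (2589 and 1388 against 260) was called lower as deposited only, and Batf3 (-0.44) was not called. Xcr1 and Clec9a read at most 10 units on every array, and Cd209a read below 50 on each. The summed intensity of the 8 dendritic cell markers, most of it from Itgax and Flt3, was 5033 and 4165 units in the parental cells and 366 in the resistant cells. The B cell list summed to 2254 and 2318 against 283 units. Of 5 measured B cell markers, 2 fell, Cd79b (-3.88) and Cd22 (-2.45), where 8.35% of all genes did. Cd79a (-1.15) was called lower as deposited only, Pax5 (-0.38) was not called, and Ms4a1 read at most 10 units on every array. T and NK cell markers (394 and 365 against 121 units, with Cd3d and Ncr1 near 0) and erythroid and megakaryocyte markers (125 and 102 against 63.8 units) were low. Stromal and endothelial markers summed to 1266 and 1403 against 2794 units, with Col1a2 and Lum near 0. Of these, Kdr (171 and 200 against 1165) rose, Pdgfrb (261 and 203 against 23.3) fell, and Pecam1 (708 and 824 against 1590) was called higher after scaling only. The part of cell identity in the fall of the members was not tested. In RNA from a whole culture, fewer cells with a transcript and less transcript per cell cannot be told apart.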

How the data were processed

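Per the labels' protocols, amplified antisense RNA carried 1 dye (Cy5) and 1-colour arrays were used. The authors deposited 1 background-subtracted linear intensity per probe (26423 probes, some below 0); scanner, software and normalization: not given in the sources used here. Median intensity was 58.4, 72.5 and 24.9 on sensitive replicates 1 and 2 and the resistant array, and the number of arrays limits the precision. Symbols came from the platform annotation (20377 probes had 1, 6046 none) and were updated through GRCm38.p6 names (18213 current, 2126 older, 38 unmatched). limma 3.58.1 in R 4.3.3 (lmFit, then eBayes with a trend) was fitted to log2(intensity + 50) of all genes, with Benjamini-Hochberg adjustment. The 1 residual degree of freedom came from the sensitive arrays (prior 11.0 as deposited, 2.54 after scaling), and the single resistant array was taken to scatter as they do. The fit was tested on simulated data.

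The members, lists and offset were chosen with earlier results of these data known. Named were all members, the 3 standard subunits, up to 4 called and 3 bright uncalled genes per list, and called neighbours; others named were chosen after their values were seen. Python 3.11.15 with pandas 2.3.3 and numpy 2.4.6 did the rest. Alternatives varied normalization, offset, filter, probe choice, variance model, threshold and replicates.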

Additional observations from a re-analysis of the deposited data

How the results depend on the processing

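The calls of Psmb8, Psmb9 and Nlrc5 held in all 14 alternatives that had a test. Those with an adjusted p limit of 0.1 or a size of 0.6 only loosened the rule, so no call could be lost there. Over the 14 and the 2 without a sensitive replicate the log2 differences were -4.97 to -4.08, -5.90 to -4.68 and -5.15 to -4.00. Psme1 and Tap1 lost their calls with the floor of 50 alone. Psmb10 lost its call after scaling, after centring on array medians, with that floor and at a size of 2, and Tapbp in these and after quantile normalization (-0.95, adjusted p = 0.0504). Members called lower numbered 3 with the floor of 50, and 1 was called higher after scaling. At a size of 0.6, B2m, Psmb5, Psmb6 and Psmb7 were also called lower, and without sensitive replicate 1 Psmb6 (-1.30) and Psmb7 (-1.38) reached a size of 1. B2m (0.10) and Psmb5 (0.023) turned positive after scaling. Genes called lower numbered 1500 after scaling, 996 after quantile normalization, 1373 after centring, 26 with the floor, 5511 at a size of 0.6 and 734 at a size of 2, against 3284. Genes called higher numbered 1749 after scaling, 1600 after centring, 133 with the floor and 354 at a size of 2, against 928. Among called genes, 54.7% were higher after quantile normalization, 53.8% after centring, 83.6% with the floor and 32.5% at a size of 2. The change of the log2 ratio of Psmb8 to Psmb5 was -4.15, -3.85 and -4.22 with an offset of 16, an offset of 100 and the floor, and that of Psmb9 to Psmb6 was -4.59, -3.74 and -4.83. Without either sensitive replicate no residual degree of freedom was left, so only differences were read, and their direction held for all members but Psme2, whose difference was -0.0008 and 0.08. No paired analysis was possible because the resistant array carries no replicate number. Dim signal limits Psme2 on every array and Psmb9 and Nlrc5 on the resistant array.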
